A study of Mus musculus with 6 samples.

Results

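A set of 10 genes of the alveolar epithelium was followed: 5 genes of alveolar type 1 cells (Hopx, Ager, Aqp5, Rtkn2 and Pdpn) and 5 genes of the transitional state that alveolar epithelium enters after injury (Krt8, Krt18, Krt19, Sfn and Sprr1a). They were taken by name from a table of 49315 mouse genes, and all 10 were found. RNA with a polyA tail had been sequenced from lung cells of male C57BL/6 (C57BL/6J) mice that received either sterile saline (sham-treated) or bleomycin sulfate (BLM), an agent that injures the lung and leads to fibrosis, by oropharyngeal instillation. Lungs were taken 21 days later and made into single-cell suspensions, which were left unsorted or sorted by Lamp1 on the cell surface into Lamp1-enriched and Lamp1-depleted cells. Each of the 6 conditions was 1 library from 2 to 3 pooled lungs of 1 group, so that animals could not be told apart. The age of the mice is not given in the sources used here. These sources give several bleomycin doses for lung fibrosis without saying which of them these mice received. In the unsorted, Lamp1-depleted and Lamp1-enriched cells, the libraries held 40742095, 39609874 and 45090413 counted reads from sham-treated mice and 39728284, 30236120 and 52918696 counted reads from BLM mice.

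The BLM Lamp1-depleted library stood apart from the others. In it, 38.4% of the reads fell on the gene Gm26917, whose share was at most 7.10% elsewhere, and 18636423 reads were left for all other genes. Its TMM scaling factor was 0.699, and the other factors lay between 0.993 and 1.19. Values that rest on this library are given below beside those of the other fractions. Levels are given as CPM (the reads of a gene per 1e6 scaled reads of its library) after TMM scaling, and sets of 3 values stand in the order unsorted, Lamp1-depleted, Lamp1-enriched. With 1 library per condition there were no replicates, so no comparison of BLM with sham had a replicate check, and none is given a p-value. A gene was called higher or lower at a log2 ratio of at least 1 in size (2-fold) and a minimum of 10 reads in the higher library, and each ratio carries a 95% Clopper-Pearson interval. These intervals and the floor of 3 reads (no fold is given where both libraries are at or under it) cover counting error only, and they compare libraries and not treatments.

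Type 1 cells are the thin, flat cells that form most of the gas exchange surface, while type 2 cells make surfactant and act as progenitors of type 1 cells. After injury, type 2 cells that are on the way to type 1 cells pass through an intermediate state marked by simple keratins, such as Krt8, and by stress-linked genes. Hopx encodes a homeodomain protein that binds no DNA itself, Ager the receptor for advanced glycation end products, Aqp5 a water channel and Pdpn the membrane glycoprotein podoplanin. Krt8 and Krt18 pair into the keratin filaments of simple epithelia and Krt19 is another simple epithelial keratin. Sfn encodes the adaptor protein 14-3-3 sigma, which is induced by p53, and Sprr1a a protein of the cornified envelope that is induced under stress in many cells. Several of these genes are also used outside the alveoli: Hopx and Rtkn2 are known from lymphocytes, Pdpn from lymphatic endothelium, fibroblasts and some macrophages, and the keratins from airway epithelium and mesothelium.

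Positions are those of the GRCm38 build. Hopx (ENSMUSG00000059325) lies at chr5:77086988-77115121, Ager (ENSMUSG00000015452) at chr17:34597862-34600936, Aqp5 (ENSMUSG00000044217) at chr15:99590782-99594829, Rtkn2 (ENSMUSG00000037846) at chr10:67979570-68059740 and Pdpn (ENSMUSG00000028583) at chr4:143267431-143299564. Krt8 (ENSMUSG00000049382) at chr15:101996698-102004482 and Krt18 (ENSMUSG00000023043) at chr15:102028180-102032027 are neighbours that are read in opposite directions, with 23697 bases between them. Krt19 (ENSMUSG00000020911) lies at chr11:100140810-100148665, Sfn (ENSMUSG00000047281) at chr4:133600556-133602168 and Sprr1a (ENSMUSG00000050359) at chr3:92483952-92485895. All 10 are annotated as protein-coding. Hopx overlaps the antisense gene Hopxos, which held 9 to 64 reads in the 6 libraries, and Rtkn2 overlaps the antisense gene Gm16212, which held at most 14 reads. Krt8 overlaps the noncoding gene Gm36026, which was not analysed here. Whether reads were counted by strand is not given in the sources used here, so a gene and its antisense partner could not be told apart. Of near-identical copies, the pseudogene Krt8-ps held at most 2 reads and Sprr1b at most 1 read in any library.

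The promoters of 3 genes are shown because they had different patterns in BLM: Hopx was lower, Ager stayed within 2-fold in unsorted and Lamp1-enriched cells, and Sprr1a appeared from very few reads. RefSeq (GRCm38.p6) gave promoters for 8 of the 10 genes, all but Rtkn2 and Krt19. Each sequence below is the 250 bases before an annotated start, written 5′ to 3′ on the strand of the gene, and for Hopx the more distal of its starts is shown. Capitals mark matches on either strand to 4 motifs: AP-1 (TGANTCA), TEAD (GGAATG), NKX2 (CAAGTG) and the TATA box (TATAAA). No match overlapped another.
Hopx (chr5:77115124-77115373, minus strand): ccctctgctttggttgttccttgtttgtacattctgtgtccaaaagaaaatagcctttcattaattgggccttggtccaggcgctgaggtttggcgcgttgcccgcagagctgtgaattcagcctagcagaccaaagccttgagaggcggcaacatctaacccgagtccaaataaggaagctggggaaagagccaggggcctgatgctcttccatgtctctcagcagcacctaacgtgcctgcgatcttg
Ager (chr17:34597600-34597849, plus strand): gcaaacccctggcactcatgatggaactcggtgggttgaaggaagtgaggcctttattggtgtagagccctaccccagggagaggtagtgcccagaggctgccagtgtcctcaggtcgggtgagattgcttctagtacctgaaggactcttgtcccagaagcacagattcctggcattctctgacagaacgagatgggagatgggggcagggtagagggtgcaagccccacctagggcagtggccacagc
Sprr1a (chr3:92485882-92486131, minus strand): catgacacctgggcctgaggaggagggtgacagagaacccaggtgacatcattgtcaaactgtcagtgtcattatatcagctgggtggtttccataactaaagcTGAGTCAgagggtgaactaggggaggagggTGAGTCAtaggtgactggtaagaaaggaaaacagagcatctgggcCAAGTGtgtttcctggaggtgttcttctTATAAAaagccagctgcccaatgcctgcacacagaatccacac
Of the 9 windows of the 8 genes, only that of Sprr1a held any of these letters, with 2 AP-1 matches, 1 NKX2 match and 1 TATA box. Over all 32851 promoters of this length, 6.75% held the AP-1 letters, 12.6% the TEAD letters, 11.6% the NKX2 letters and 12.4% the TATA box. A match describes the sequence only and is not evidence of a bound site.

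Among the type 1 genes, Hopx and Rtkn2 were lower in BLM, Ager and Aqp5 stayed within 2-fold in unsorted and Lamp1-enriched cells, and Pdpn was higher in every fraction. Hopx stood at 147, 22.1 and 156 CPM in the sham fractions and at 33.1, 18.4 and 51.0 CPM in the same fractions from BLM mice. Its log2 ratio of BLM over sham was -2.15 (-2.24 to -2.07) in unsorted cells, from 7151 to 1307 reads, and -1.61 (-1.67 to -1.55) in Lamp1-enriched cells, from 7159 to 2780 reads. In Lamp1-depleted cells, where Hopx was already low, the log2 ratio was -0.27 (-0.44 to -0.10). Rtkn2 followed the same order at a lower level, with 35.1, 3.77 and 37.7 CPM in the sham fractions and 11.3, 3.50 and 17.1 CPM in the BLM fractions. Its log2 ratio was -1.64 (-1.79 to -1.49) in unsorted and -1.14 (-1.25 to -1.02) in Lamp1-enriched cells, and -0.11 (-0.52 to 0.29) in Lamp1-depleted cells. Under scaling by total counts the Lamp1-depleted values were -0.99 for Hopx and -0.82 for Rtkn2, and with DESeq2 size factors that of Rtkn2 turned to 0.04. In bulk libraries such as these, fewer cells of a type and less RNA per cell cannot be told apart. Genes of lymphocytes, which also use Hopx and Rtkn2, were measured too. Of 5 B cell genes, 3 were lower and none higher in BLM in each fraction (medians -1.44, -2.55 and -1.71). Of 10 T and NK cell genes, 2, 5 and 5 were lower and 1, 1 and 0 higher (medians -0.3, -0.83 and -1.07). Of all genes, 16.0%, 22.3% and 7.81% were lower. The part of lymphocytes in the level of Hopx and Rtkn2 was not tested.

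Ager was also lower in BLM unsorted cells, but by less than 2-fold, and it was not lower in the sorted fractions. It stood at 46.8, 4.08 and 43.5 CPM in the sham fractions and at 33.1, 12.9 and 46.4 CPM in the BLM fractions. The log2 ratio of BLM over sham was -0.50 (-0.60 to -0.40) in unsorted cells, 0.09 (0.01 to 0.18) in Lamp1-enriched cells and 1.66 (1.39 to 1.94) in Lamp1-depleted cells. Thus the unsorted and the Lamp1-depleted libraries differed in opposite directions. Under scaling by total counts the last value was 0.94, short of the call, and the unsorted value was -0.76. Aqp5 was the steadiest of the type 1 genes in unsorted and Lamp1-enriched cells. It stood at 8.86, 0.834 and 8.39 CPM in the sham fractions and at 8.39, 1.51 and 8.37 CPM in the BLM fractions. Its log2 ratio was -0.08 (-0.29 to 0.13) in unsorted and 0.00 (-0.20 to 0.20) in Lamp1-enriched cells, and 0.85 (0.14 to 1.58) in Lamp1-depleted cells, where it had 38 reads in sham and 32 in BLM. With DESeq2 size factors the last value met the call, and under total counts it was 0.14 and the unsorted value -0.34.

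Pdpn moved the other way from Hopx and Rtkn2. It stood at 12.7, 0.987 and 8.37 CPM in the sham fractions and at 110, 8.76 and 23.2 CPM in the BLM fractions. Its log2 ratio was 3.11 (2.99 to 3.24) in unsorted, 3.13 (2.67 to 3.65) in Lamp1-depleted and 1.47 (1.31 to 1.64) in Lamp1-enriched cells. The Lamp1-depleted value was 2.42 under total counts. Each BLM library was thus above its sham counterpart. Genes of other cells that use Pdpn were measured beside it. Of 9 macrophage genes, 9 were higher in BLM unsorted cells, with a median log2 ratio of 3.46, 3 were higher in Lamp1-depleted cells (median 0.69, or -0.03 under total counts) and 7 in Lamp1-enriched cells (median 1.84), and none was lower. Their summed level was 253, 263 and 82.7 CPM in the sham fractions and 2224, 329 and 288 CPM in the BLM fractions. The most abundant gene of a list is given here and below as the one with the highest mean CPM over the 6 libraries, which need not lead in each library, and for macrophages it was the integrin gene Itgax. None of the 9 was at the floor in every library. Beside the counts of macrophage genes and of the lists below, 13.9%, 13.7% and 10.2% of all genes were called higher in the 3 fractions. The shares called lower were 16.0%, 22.3% and 7.81%.

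Lymphatic endothelial and fibroblast genes had no common direction. Of 5 lymphatic genes tested, 1 was higher and 2 were lower in BLM unsorted cells. In Lamp1-enriched cells none was higher and 2 were lower. In Lamp1-depleted cells 1 was higher and 1 lower, but 4 of the 5 ratios were below 0 (median -0.79). The shift of -0.72 under total counts would add lower calls there. The gene called higher in unsorted and Lamp1-depleted cells was Prox1 (1.33 and 1.97), which stood at 0.66 in Lamp1-enriched cells, short of the call. The lymphatic genes summed to 438, 81.9 and 779 CPM in the sham fractions and 188, 32.7 and 400 CPM in the BLM fractions. Lyve1 was the most abundant by mean CPM and Ccl21a had 0 reads in all 6 libraries. Without Lyve1 the sum was 133, 27.7 and 173 CPM in sham and 105, 22.2 and 107 CPM in BLM. Of 8 fibroblast genes, 3 were higher and 3 lower in unsorted cells (median -0.02), 3 were higher and 5 lower in Lamp1-depleted cells (median -1.27), and 3 were higher and 1 lower in Lamp1-enriched cells (median 0.79). Their summed level was 685, 112 and 328 CPM in the sham fractions and 927, 193 and 955 CPM in the BLM fractions. Col1a1 was the most abundant by mean CPM, but led in no sham library, and without it the sum was 593, 94.9 and 281 CPM in sham and 512, 102 and 510 CPM in BLM. The part of these cells in the level of Pdpn was not tested.

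**Figure D1:**
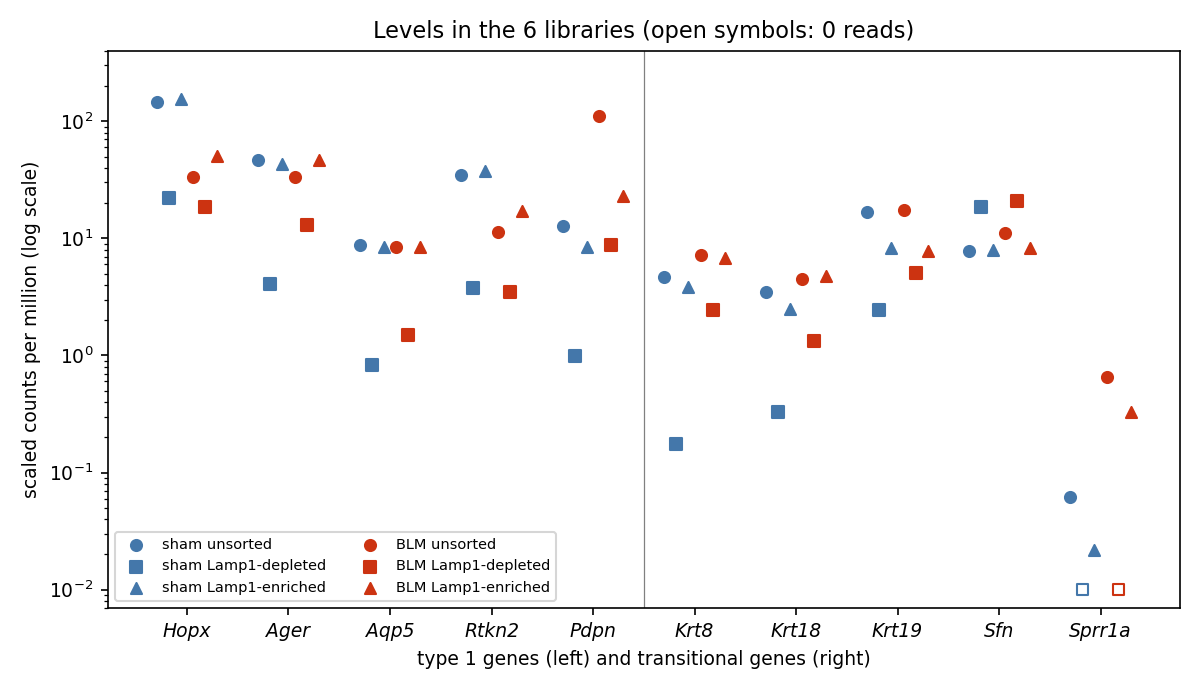
Level of each gene (x axis) in CPM after TMM scaling (y axis, log scale) in the 6 libraries, 1 point a library (circles unsorted, squares Lamp1-depleted, triangles Lamp1-enriched). Hopx and Rtkn2 lie lower in BLM (red) than in sham (blue) unsorted and Lamp1-enriched cells, Pdpn lies higher in all BLM fractions, and Sfn is the only one of the 10 with its highest levels in the Lamp1-depleted cells; open squares at the bottom mark 0 reads.

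Of the transitional genes, the keratin pair Krt8 and Krt18 was somewhat higher in BLM, Sfn was somewhat higher in unsorted cells and Krt19 differed little in unsorted and Lamp1-enriched cells, and Sprr1a was almost confined to the BLM libraries. Krt8 stood at 4.72, 0.175 and 3.83 CPM in the sham fractions and at 7.28, 2.46 and 6.84 CPM in the BLM fractions. Its log2 ratio was 0.62 (0.37 to 0.88) in unsorted and 0.84 (0.58 to 1.11) in Lamp1-enriched cells, both short of 2-fold. In Lamp1-depleted cells it was 3.72 (2.73 to 5.10), from 8 reads in sham to 52 in BLM, and 3.02 under total counts. Krt18, its filament partner, was similar, with 3.50, 0.329 and 2.5 CPM in the sham fractions and 4.49, 1.33 and 4.73 CPM in the BLM fractions. Its log2 ratios were 0.36 (0.05 to 0.67), 1.97 (1.06 to 3.02) and 0.92 (0.60 to 1.25) in the 3 fractions, the Lamp1-depleted value being 1.26 under total counts. Both keratins were above sham in all 3 fractions, under each of the scalings tried, although in unsorted cells total counts gave only 0.36 for Krt8 and 0.09 for Krt18.

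Krt19 stood at 16.7, 2.46 and 8.28 CPM in the sham fractions and at 17.3, 5.02 and 7.82 CPM in the BLM fractions. Its log2 ratio was 0.05 (-0.10 to 0.20) in unsorted cells, -0.08 (-0.29 to 0.12) in Lamp1-enriched cells and 1.03 (0.63 to 1.43) in Lamp1-depleted cells. The last value fell short of the call under scaling by total counts (0.31) and by total counts outside Gm26917 (0.95), and the sign of the unsorted value turned under both (-0.21 and -0.13). Sfn stood at 7.87, 18.7 and 7.98 CPM in the sham fractions and at 11.2, 20.7 and 8.29 CPM in the BLM fractions. Its log2 ratio was 0.51 (0.31 to 0.71) in unsorted, 0.15 (-0.02 to 0.32) in Lamp1-depleted and 0.06 (-0.15 to 0.26) in Lamp1-enriched cells. Under total counts the Lamp1-depleted value was -0.57 and the unsorted value 0.24.

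Sprr1a was the scarcest of the 10 genes. It had 3, 0 and 1 reads in the sham fractions and 26, 0 and 18 reads in the BLM fractions, or 0.659 and 0.330 CPM in BLM unsorted and Lamp1-enriched cells. Every sham count was at or under the floor of 3 reads, which corresponds to 0.0618, 0.0658 and 0.0652 CPM in the 3 sham libraries. The scaled ratio of BLM over sham was 10.7 in unsorted cells (interval 3.27 to 55.1) and 15.2 in Lamp1-enriched cells (2.40 to 633). In Lamp1-depleted cells it had 0 reads in both libraries, where the floor was 0.142 CPM in BLM, so no difference was detectable at this depth.

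Counted over the 10 genes in unsorted cells, 2 were called higher in BLM (Pdpn and Sprr1a) and 2 lower (Hopx and Rtkn2). Of all 22772 genes tested, 13.9% were called higher and 16.0% lower, so these counts were close to those of genes in general. In Lamp1-enriched cells the same 2 genes were higher and the same 2 lower, against 10.2% and 7.81% of 21671 genes. In Lamp1-depleted cells 5 of the 9 genes tested were higher (Ager, Pdpn, Krt8, Krt18 and Krt19) and none was lower, against 13.7% and 22.3% of 20852 genes. That count was 3 under scaling by total counts. The median log2 ratio of all genes tested was -0.07 in unsorted, -0.21 in Lamp1-depleted and 0.00 in Lamp1-enriched cells. Comparisons between the fractions share no library, but the differences between them were not tested.

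**Figure D2:**
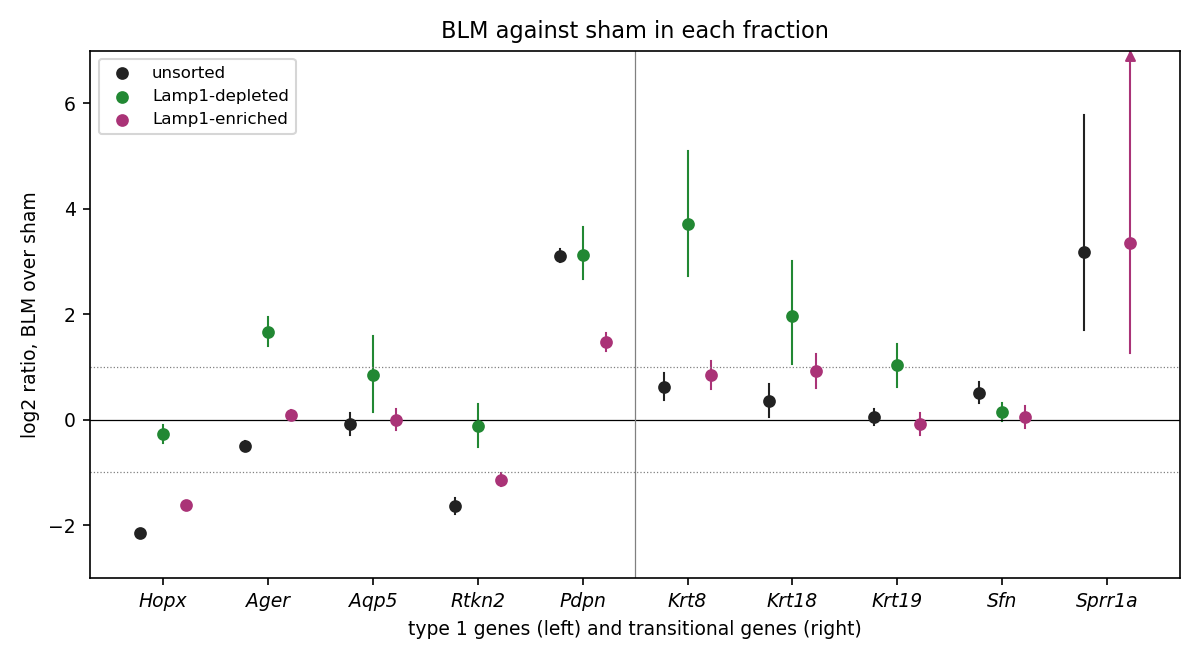
Log2 ratio of BLM over sham (y axis, prior count of 0.5 reads) for each gene (x axis) in unsorted (black), Lamp1-depleted (green) and Lamp1-enriched (purple) cells, with 95% counting intervals as lines and dotted lines at 2-fold. Hopx (-2.15 and -1.61) and Rtkn2 (-1.64 and -1.14) lie under the lower line in unsorted and Lamp1-enriched cells, and Pdpn lies above the upper line in all 3 fractions; a filled triangle marks an interval that runs off the axis.

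Per length of the annotated exons, the order of the genes differed between the treatments. In sham unsorted cells Hopx led at 97.2 CPM per kilobase, followed by Ager (21.9), Krt19 (9.03), Pdpn (6.99), Rtkn2 (6.33), Sfn (4.88), Aqp5 (3.41), Krt18 (2.44), Krt8 (2.41) and Sprr1a (0.0767). The neighbours Pdpn and Rtkn2, and Krt18 and Krt8, did not differ beyond their exact Poisson intervals. In BLM unsorted cells Pdpn led at 60.6 CPM per kilobase, followed by Hopx (21.9), Ager (15.5), Krt19 (9.35), Sfn (6.93), Krt8 (3.72), Aqp5 (3.23), Krt18 (3.12), Rtkn2 (2.03) and Sprr1a (0.818). Here Krt8, Aqp5 and Krt18 did not differ from their neighbours among these 3 beyond the intervals. In BLM Lamp1-enriched cells Hopx still led at 33.6 CPM per kilobase, with Ager at 21.7 and Pdpn at 12.8. In BLM Lamp1-depleted cells Sfn (12.8) and Hopx (12.1) led and did not differ beyond their intervals.

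The balance of the groups was taken within each library, as the mean log2 level of the 5 transitional genes minus that of the 5 type 1 genes, so that the scaling between libraries cancels. It was -3.47 in unsorted and -3.94 in Lamp1-enriched cells from sham-treated mice, and -2.28 and -2.68 in the same fractions from BLM mice. Transitional genes thus stood higher against type 1 genes in BLM by 1.20 ± 0.34 (95% counting interval) in unsorted and 1.25 ± 0.49 in Lamp1-enriched cells. Sprr1a carried much of these values. In Lamp1-depleted cells Sprr1a had 0 reads in both libraries, so that its term was the prior count alone, and the balance was read there without it, at -1.25 in sham and -0.58 in BLM. Without Sprr1a the differences were 0.64 ± 0.13, 0.66 ± 0.41 and 0.67 ± 0.14 in the 3 fractions, each with a counting interval above 0. These similar values had unlike parts. After TMM scaling the type 1 mean was lower in BLM in unsorted (4.94 and 4.69 in sham and BLM) and Lamp1-enriched cells (4.82 and 4.58). In Lamp1-depleted cells it was higher (1.64 and 2.69). The Lamp1-depleted difference also holds the large Krt8 ratio (3.72), which rests on 8 reads in sham and 52 in BLM. With Sprr1a kept and the median of all 5 and 5 genes in place of the mean, the differences were 0.71 in unsorted and 1.54 in Lamp1-enriched cells. The type 1 mean itself combined the lower Hopx and Rtkn2 with the higher Pdpn. With Ager and Aqp5 alone as type 1 genes the differences, with Sprr1a, were 1.23 in unsorted and 0.97 in Lamp1-enriched cells. The Lamp1-depleted values that hold the Sprr1a term were 0.32 with means, 1.65 with medians and 0.12 with Ager and Aqp5 alone, and no direction was read from them.

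**Figure D3:**
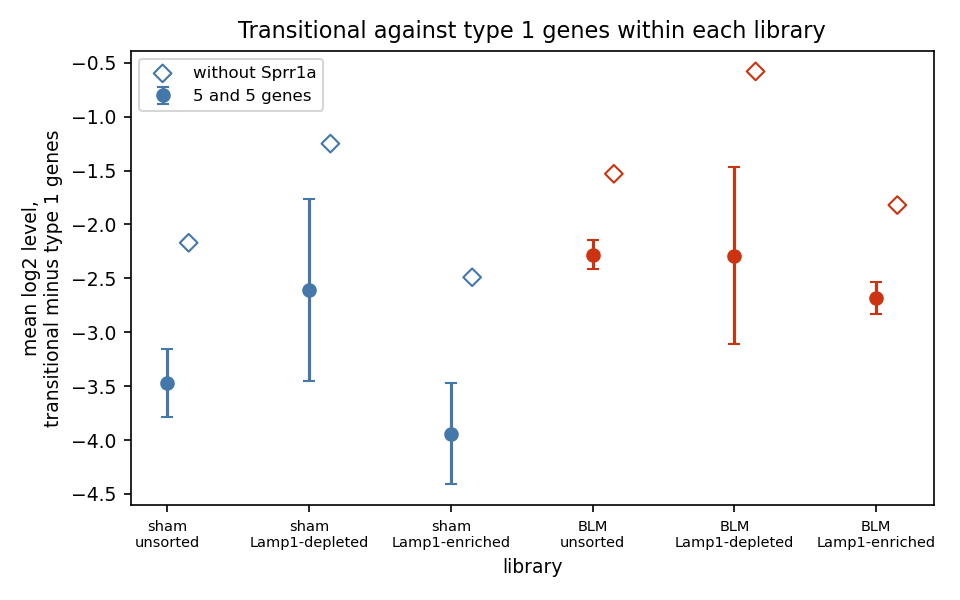
Mean log2 level of the transitional genes minus that of the type 1 genes (y axis) in each library (x axis), with all 5 and 5 genes (filled points, bars for 95% counting intervals) and without Sprr1a (open diamonds). BLM libraries (red) lie above their sham counterparts (blue) in unsorted cells (-2.28 against -3.47) and Lamp1-enriched cells (-2.68 against -3.94), and the filled points of the Lamp1-depleted libraries hold a Sprr1a term from 0 reads, so that only the open diamonds (-0.58 against -1.25) are compared there.

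The same genes were set against a list of 10 general genes of lung epithelium, called pan-epithelial here (among them Cdh1, the most abundant by mean CPM). Of these 10 genes 1 was higher and none lower in BLM unsorted cells, none was called in Lamp1-enriched cells, and 3 were higher and 1 lower in Lamp1-depleted cells (2 and 5 under total counts). Their mean log2 level differed between BLM and sham by 0.35, 0.21 and -0.04 in the 3 fractions. In Lamp1-depleted cells the median ratio was -0.31, with 4 genes above 0 and 6 below. The shift of -0.72 under total counts would also turn the mean of these genes there. Their summed level was 75.2, 32.9 and 53.7 CPM in the sham fractions and 122, 39.1 and 52.8 CPM in the BLM fractions, and none was at the floor in every library. Without Cdh1 the sums were 42.1, 26.7 and 29.3 CPM in sham and 50.5, 23.1 and 27.2 CPM in BLM. Relative to their mean, Hopx differed by -2.5 and Rtkn2 by -1.99 in unsorted cells, and by -1.57 and -1.10 in Lamp1-enriched cells. Ager differed by -0.85 and 0.13, and Aqp5 by -0.42 and 0.03, in the same pair of fractions. Pdpn stood 2.77, 2.92 and 1.51 higher in the 3 fractions. Krt8 and Krt18 were close to the epithelial mean in unsorted cells (0.28 and 0.01) and above it in Lamp1-enriched (0.88 and 0.96) and Lamp1-depleted cells (3.51 and 1.76). The Lamp1-depleted values carry no interval and rest on few reads. The epithelial mean there held genes with as few as 3 reads in BLM, and Krt8 had 8 reads in sham. Krt19 (-0.30 and -0.04) and Sfn (0.16 and 0.09) stayed close to that mean in unsorted and Lamp1-enriched cells. These differences depended on the genes taken as the reference. Against Cdh1 alone, Hopx was -3.27, Rtkn2 -2.75 and Pdpn 2.00 in unsorted cells. In Lamp1-depleted cells Pdpn and Krt8 were 1.78 and 2.37 against Cdh1 alone, and 3.70 and 4.29 against Epcam alone. Small differences could also change sign. Against Cdh1 alone, the values in unsorted cells were -0.49 for Krt8, -0.76 for Krt18, -1.06 for Krt19, -0.61 for Sfn, -1.62 for Ager and -1.19 for Aqp5, so that Krt8, Krt18 and Sfn turned, and Krt18 in Lamp1-depleted cells was 0.62. Against Epcam alone, Krt18 (-0.27) and Sfn (-0.12) turned in unsorted cells, and Ager (-0.20), Aqp5 (-0.30) and Sfn (-0.24) turned in Lamp1-enriched cells, while against Cdh1 Aqp5 (-0.08) and Sfn (-0.02) did so there.

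By sorting on surface Lamp1, nearly all of these genes stood higher in the Lamp1-enriched cells, in both treatments, as did 27.5% of all genes tested in sham and 34.4% in BLM by the same call. Genes of other cells had this direction too. All 9 blood endothelial genes were higher after sorting for Lamp1 in each treatment (medians 2.74 in sham and 3.29 in BLM), as were 12 of 15 type 2 genes in sham and 10 of 14 in BLM (2.22 and 1.64), 6 and 7 of 8 fibroblast genes (1.49 and 2.28), and 6 and 2 of 7 airway club cell genes (2.17 and 0.13). The direction was thus not particular to the alveolar type 1 and transitional genes. In sham-treated mice all 5 type 1 genes were higher in Lamp1-enriched than in Lamp1-depleted cells, with log2 ratios from 2.81 (2.72 to 2.91) for Hopx to 3.41 (3.20 to 3.64) for Ager. Krt8 had the largest ratio of the 10 genes there, 4.36 (3.44 to 5.68), from 8 reads in Lamp1-depleted cells, followed among the transitional genes by Krt18 at 2.88 (2.14 to 3.81) and Krt19 at 1.75 (1.45 to 2.07). In BLM mice the type 1 genes were again all higher, by log2 ratios from 1.40 (1.18 to 1.64) for Pdpn to 2.46 (1.95 to 3.03) for Aqp5, with Hopx at 1.47 (1.32 to 1.63), Ager at 1.84 (1.66 to 2.03) and Rtkn2 at 2.29 (1.95 to 2.65). The keratins stood at 1.47 (1.05 to 1.92) for Krt8, 1.83 (1.27 to 2.45) for Krt18 and 0.64 (0.33 to 0.96) for Krt19. Sprr1a had 18 reads against 0 in BLM Lamp1-enriched cells, 2.33-fold over the floor of 3 reads, with a lower counting limit of 1.7-fold. Each ratio of these type 1 genes and keratins was smaller in BLM than in sham, and that difference was not tested.

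Sfn went against the other genes tested. Its log2 ratio of Lamp1-enriched over Lamp1-depleted cells was -1.23 (-1.41 to -1.05) in sham and -1.32 (-1.51 to -1.13) in BLM, the latter -0.76 under scaling by total counts. Of the 10 pan-epithelial genes, 6 were higher and 1 lower in sham Lamp1-enriched cells (median log2 ratio 1.64), and 5 were higher and none lower in BLM (median 0.89). Of the type 2 genes, 12 of 15 were higher and 1 lower in sham, and 10 of 14 were higher and 1 lower in BLM. Against the direction of most genes of these 2 lists, some epithelial genes had the direction of Sfn in sham. They were the protease inhibitor gene Spint2 (-1.40), the adhesion gene Epcam (-0.77, short of the call) and the type 2 gene Napsa (-2.69). Their BLM values were -0.72, 0.09 and -2.06. Lymphocyte genes also had the same direction as Sfn. All 10 T and NK cell genes were lower in Lamp1-enriched cells in both treatments, with medians of -3.91 in sham and -3.90 in BLM, and so were all 5 B cell genes, with medians of -4.19 and -3.62. The T and NK cell genes, with Cd2 the most abundant by mean CPM, summed to 52.0, 548 and 33.6 CPM in the sham fractions and 47.9, 296 and 17.7 CPM in the BLM fractions. The B cell genes, with Pax5 the most abundant by mean CPM, summed to 200, 2655 and 143 CPM and to 122, 1099 and 55.3 CPM, and no gene of either list was at the floor in every library. Their part in the level of Sfn, and in that of Hopx and Rtkn2 in Lamp1-depleted cells, was not tested.

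In sham, 8 of the 9 genes tested were called higher in Lamp1-enriched cells and 1 lower, against 27.5% and 25.2% of 21867 genes. In BLM, 8 of 10 were called higher and 1 lower, against 34.4% and 22.6% of 21838 genes. Taking the treatments as repeats of the sorting, edgeR's quasi-likelihood test on the 4 sorted libraries, blocked by treatment, called 8 of the 9 genes it kept higher and 1 lower at an adjusted p under 0.05. Of all 20593 genes kept, 21.5% were called higher and 19.2% lower. The log2 difference between Lamp1-enriched and Lamp1-depleted cells was 2.53 ± 0.38 (SE) for Ager (edgeR adjusted p = 3.61e-10), 2.73 ± 0.40 for Rtkn2 (2.36e-10), 2.05 ± 0.36 for Hopx (1.16e-07), 2.80 ± 0.52 for Aqp5 (5.26e-07) and 2.10 ± 0.43 for Pdpn (7.83e-06). Among the transitional genes it was 2.65 ± 0.59 for Krt8 (edgeR adjusted p = 5.00e-05), 2.25 ± 0.63 for Krt18 (1.37e-03), 1.10 ± 0.46 for Krt19 (4.39e-02) and -1.37 ± 0.38 for Sfn (1.36e-03). Each of these 9 genes had the same direction in 2 of 2 treatments. Sprr1a had too few reads to be kept. The test had 1 residual degree of freedom, with a spread pooled over genes, and speaks for neither treatment alone. Each SE was taken from this test, so it does not measure a gene's own spread between the treatments. For Krt8, for example, the ratios were 4.36 in sham and 1.47 in BLM. The call of Krt19 was lost with DESeq2 and with total counts, and that of Sfn with total counts.

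**Figure D4:**
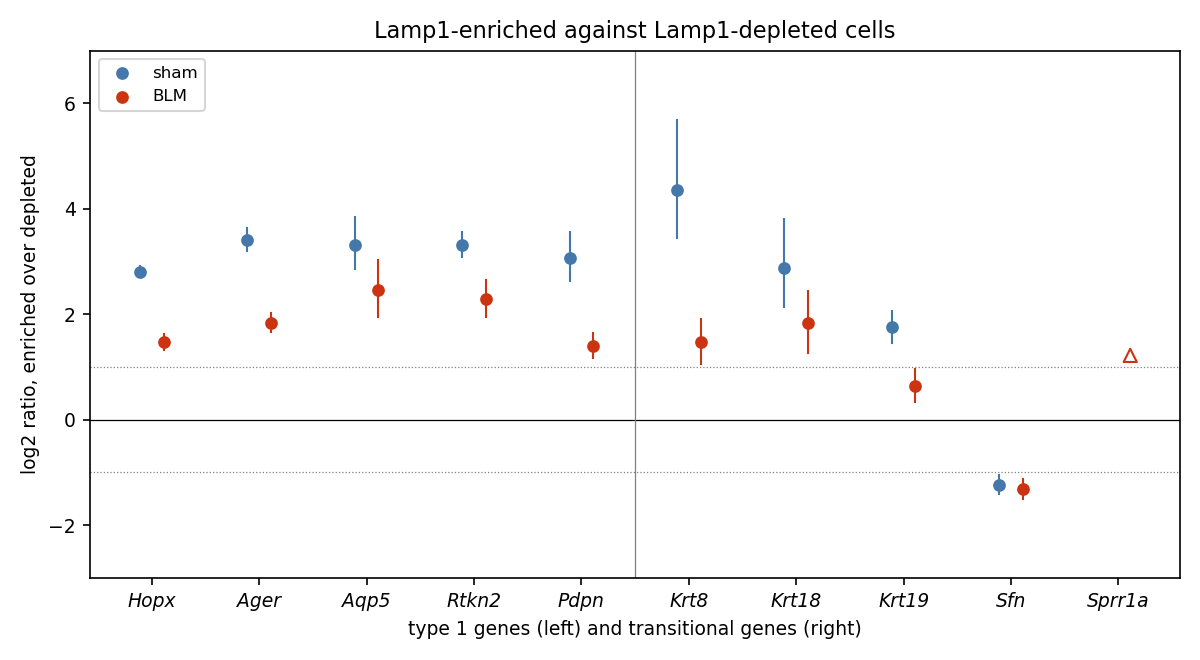
Log2 ratio of Lamp1-enriched over Lamp1-depleted cells (y axis) for each gene (x axis) in sham (blue) and BLM (red), with 95% counting intervals as lines and dotted lines at 2-fold. All genes but Sfn (-1.23 and -1.32) lie above 0, and the open triangle for Sprr1a stands at its ratio over the floor of 3 reads, 2.33-fold, from 18 reads against 0 (lower counting limit 1.7-fold).

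The patterns over the 6 libraries were compared by the root mean square distance of centred log2 levels, among 13475 genes with a mean of at least 100 reads. The 5 genes nearest to Ager were Wtip (0.139), Heyl (0.144), Cbr3 (0.151), Filip1 (0.161) and Gramd2 (0.165). Heyl, for example, stood at 18.8, 1.84 and 19.5 CPM in the sham fractions and 11.3, 5.68 and 18.1 CPM in the BLM fractions, with the same low sham Lamp1-depleted level and higher BLM Lamp1-depleted level as Ager. Of the other 9 genes followed here, Aqp5 (0.332) and Krt18 (0.391) were closer to Ager than Rtkn2 (0.708) and Hopx (0.924) were, and Pdpn lay at 1.38. Among the genes near to Krt8 were Kif21a (0.450), Fam71a (0.469), Flrt3 (0.528) and 4930452B06Rik (0.573). Krt18 lay at 0.575 from Krt8, Ager at 0.763 and Sfn at 2.24. These distances rest on 6 libraries and are a description.

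A wider list of 20 type 1 genes was lower in BLM unsorted cells by its median (-0.50 on the log2 scale), with 5 genes lower and none higher, against 16.0% lower and 13.9% higher among all genes tested. In Lamp1-enriched cells the median was -0.20, with 2 lower and none higher, against 7.81% and 10.2% of all genes, so that the count of lower genes was close to that of genes in general. In Lamp1-depleted cells the median was 0.39, with 5 higher and none lower, against 13.7% and 22.3%, but total counts turned it to -0.33, with 3 higher and 4 lower. The lowest ratios in unsorted cells were those of Limch1, an actin-linked protein (-1.71), Emp2, a membrane protein of type 1 cells (-1.52), and Scnn1g, a subunit of the epithelial sodium channel (-1.23). Clic5, the most abundant of the list by mean CPM, stood at -1.05 (-1.08 to -1.03) in unsorted and -0.31 (-0.32 to -0.29) in Lamp1-enriched cells. Clic5 and Emp2 are also known from endothelial cells. Of 9 blood endothelial genes, 5 were lower in BLM unsorted cells (median -1.05), 2 in Lamp1-depleted cells (median -0.40, or 5 and -1.12 under total counts) and 1 in Lamp1-enriched cells (median -0.10), and none was higher. The endothelial genes, with Cdh5 the most abundant by mean CPM, summed to 5168, 1215 and 7867 CPM in the sham fractions and 2984, 844 and 7460 CPM in the BLM fractions, with none at the floor in every library. By sorting, 19 of the 20 were higher in Lamp1-enriched than in Lamp1-depleted cells in sham (median 3.0) and 19 in BLM (median 2.18), and none was lower, while 27.5% and 34.4% of all genes were higher. All 9 endothelial genes were also higher by sorting in both treatments (medians 2.74 and 3.29). The part of endothelial cells in the wider type 1 list was not tested.

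Of 24 further genes of the transitional state, 23 were found in the table, all but Ctgf. In BLM unsorted cells 12 were higher and 2 lower (median log2 ratio 1.02), against 13.9% higher and 16.0% lower among all genes tested. In Lamp1-enriched cells 11 of 23 were higher and none lower (median 0.93), against 10.2% and 7.81%, and in Lamp1-depleted cells 14 of 22 were higher and none lower (median 1.23), against 13.7% and 22.3%. Total counts gave 5 higher and 3 lower in Lamp1-depleted cells (median 0.51) and a median of 0.76 in unsorted cells. Cldn4, a tight junction claudin, had the largest ratio among the genes of the list with reads in sham, with 7 reads in sham and 259 in BLM unsorted cells (log2 ratio 5.40, 4.45 to 6.84), 3 and 299 reads in Lamp1-enriched cells (6.16, 4.83 to 8.68) and 2 and 41 reads in Lamp1-depleted cells (5.13, 3.52 to 8.56). Krt17, a keratin of basal and stressed epithelium, had 0 reads in sham and 18 in BLM unsorted cells, 7.38-fold over the floor of 3 reads, and 0 and 15 reads in Lamp1-enriched cells, 4.22-fold over it, with lower counting limits of 2.44 and 1.60 on the log2 scale. Fn1, a matrix protein also made by fibroblasts and macrophages and the most abundant of the list by mean CPM, stood 3.95 (3.93 to 3.98) higher on the log2 scale in unsorted cells. The lowest ratios in unsorted cells were those of Tm4sf1, a tetraspanin-like protein also found in endothelium (-1.15), and Hbegf, a growth factor of the EGF family (-1.02). The list is shared with other cells, as Fn1 and Lgals3 are macrophage products too, and the part of the macrophage genes described above was not tested. Krt7 stands in both wider lists. By sorting, 10 of 21 genes were higher and 3 lower in sham Lamp1-enriched cells (median 0.81), against 27.5% and 25.2% of all genes, and 11 of 23 were higher and 4 lower in BLM (median 0.79), against 34.4% and 22.6%.

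Many genes of type 2 cells, from which the transitional state is reached, were lower in BLM. Of 15 genes, 8 were lower and 1 higher in unsorted cells (median -1.29), against 16.0% lower and 13.9% higher among all genes tested. In Lamp1-enriched cells 9 were lower and 1 higher (median -1.35), against 7.81% and 10.2%, and in Lamp1-depleted cells 7 of 14 were lower and none higher (median -0.88, or -1.60 under total counts), against 22.3% and 13.7%. Sftpc, the gene of surfactant protein C, stood at 779 CPM in sham and 98.9 CPM in BLM unsorted cells, a log2 ratio of -2.98 (-3.03 to -2.93). Cxcl15 (-2.80), a lung chemokine, and Lamp3 (-2.46), a protein of the lamellar bodies, came next. The gene called higher in unsorted and Lamp1-enriched cells was the lysozyme gene Lyz2 (3.11 and 1.44), which macrophages also express strongly. The mucin gene Muc1 was above sham short of the call, at 0.64 (0.27 to 1.01) in Lamp1-depleted and 0.37 (0.18 to 0.56) in Lamp1-enriched cells. In unsorted cells it stood at 0.11 (-0.06 to 0.28). The shift of -0.72 under total counts would turn the sign of its Lamp1-depleted value. With Lyz2 as its most abundant gene, the list summed to 3814, 1717 and 2075 CPM in the sham fractions and 17733, 2623 and 2604 CPM in the BLM fractions, and none of its genes was at the floor in every library. Without Lyz2 the sum went the other way, from 1818, 468 and 1269 CPM in the sham fractions to 491, 235 and 414 CPM in the BLM fractions.

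**Figure D5:**
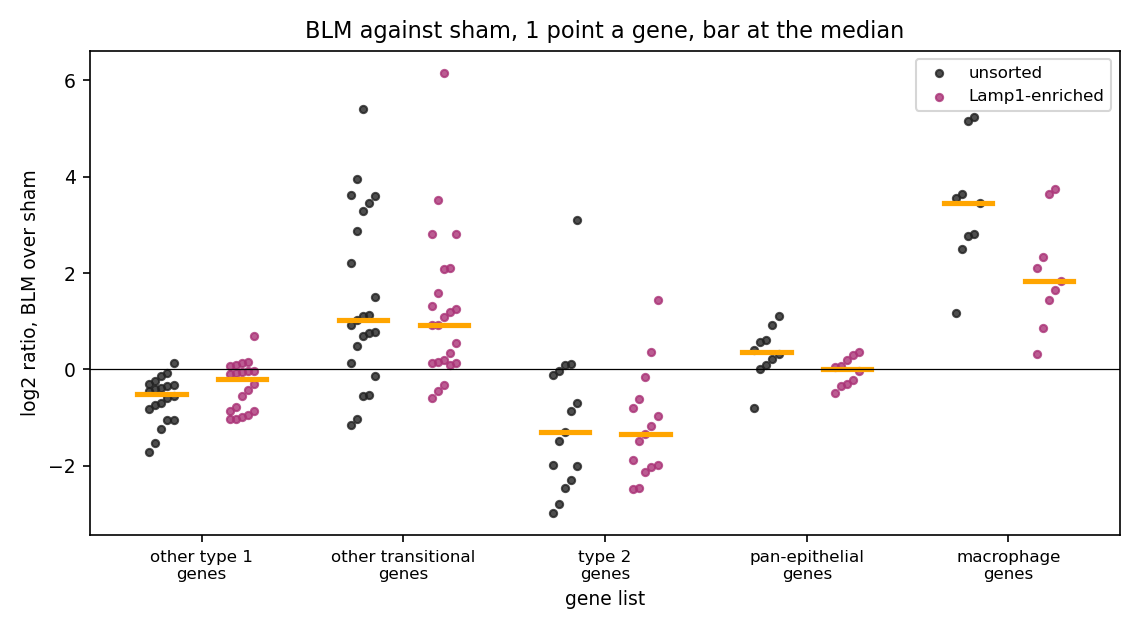
Log2 ratio of BLM over sham (y axis) for each gene of 5 lists (x axis) in unsorted (black) and Lamp1-enriched cells (purple), 1 point a gene, with the median as an orange bar and genes with 0 sham reads at their ratio over the floor of 3 reads. Medians in unsorted cells were -0.50 for the wider type 1 genes, 1.02 for the wider transitional genes, -1.29 for type 2 genes, 0.37 for pan-epithelial genes and 3.46 for macrophage genes.

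Other epithelial and mesothelial cells that use the keratins were also measured. Airway club cell genes, with Scgb1a1 the most abundant by mean CPM, summed to 255, 39.4 and 183 CPM in the sham fractions and 170, 71.3 and 66.5 CPM in the BLM fractions, and without it to 159, 25.6 and 121 CPM and 100, 23.8 and 42.6 CPM. In BLM, 1 of 7 was lower and none higher in unsorted cells (median -0.14), 2 were higher and 1 lower in Lamp1-depleted cells (median 0.68), and 1 was higher and 4 were lower in Lamp1-enriched cells (median -1.07). Of 7 genes of ciliated cells, 6 were higher and 1, Tppp3, was lower in BLM unsorted cells, with a median of 2.34. In Lamp1-enriched cells 1 of the 4 tested was higher and 2 were lower (median -0.51), and in Lamp1-depleted cells 1 of the 3 tested was higher and 1 lower (median 0.25). Their sum was 68.0, 15.3 and 60.8 CPM in the sham fractions and 48.5, 18.7 and 17.8 CPM in the BLM fractions. Tppp3 led this sum in each library. With Tppp3 left out, the sum was higher in BLM in every fraction under TMM scaling. It was then 4.18 CPM in sham and 19.7 CPM in BLM unsorted cells, and 2.52 and 3.55 CPM in Lamp1-depleted cells. The shift of -0.72 under total counts would turn the direction in Lamp1-depleted cells. Of 5 basal cell genes, 4 were higher and none lower in BLM unsorted cells (median 1.46), 3 of 4 tested were higher and none lower in Lamp1-enriched cells, and 1 of 2 tested was higher and none lower in Lamp1-depleted cells, at sums of only 1.73, 3.66 and 0.652 CPM in the sham fractions and 3.83, 3.55 and 2.62 CPM in the BLM fractions, or, without Ngfr, 0.968, 0.263 and 0.391 CPM and 2.81, 1.18 and 2.31 CPM. Ngfr was the most abundant of them by mean CPM, but did not lead in BLM unsorted or Lamp1-enriched cells. Of the basal keratins, Krt14 had 0 reads in sham and 24 in BLM Lamp1-enriched cells, 6.75-fold over the floor of 3 reads with a lower counting limit of 2.35 on the log2 scale, and Krt5 had 2 and 49 reads (log2 ratio 4.04, 2.44 to 7.46). Mesothelial genes, with Upk1b the most abundant by mean CPM, summed to 24.8, 5.18 and 5.63 CPM in the sham fractions and 32.3, 5.35 and 12.5 CPM in the BLM fractions, with 2 of 6 higher and none lower in unsorted cells, 3 of 6 higher and 2 lower in Lamp1-depleted cells (median 0.54) and 3 of 5 higher and none lower in Lamp1-enriched cells. Without Upk1b the mesothelial sums were 16.6, 3.58 and 1.91 CPM in sham and 26.8, 4.64 and 8.29 CPM in BLM. Under total counts the Lamp1-depleted medians turned to -0.04 for club, -0.47 for ciliated and -0.17 for mesothelial genes. No gene of these lists was at the floor in every library. Their part in the keratin levels was not tested.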

How the data were processed

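The authors deposited raw counts of reads per gene that were not normalized. The submitters' processing notes name Trimmomatic 0.36, STAR 2.5.2b, featureCounts (Subread 1.5.2), DESeq2 and GRCm38; the annotation and the strand setting are not given in the sources used here. Libraries were assigned to conditions by their labels. The members and lists were chosen with earlier results of these data known. Members were matched by name and other list genes by Ensembl identifier; 48970 of 49315 genes were found in GENCODE M21. For 2 list genes the name in the table differed: Areg stood there as Mcub and Siglecf as Siglec5. TMM factors and the quasi-likelihood test were computed with edgeR 4.0.16 (R 4.3.3) after filterByExpr, with Benjamini-Hochberg adjustment. Log2 ratios, with a prior count of 0.5 reads, and intervals were computed with Python 3.11.15, numpy 2.4.6, scipy 1.17.1 and pandas 2.3.3, and figures drawn with matplotlib 3.10.9. Programs were tested on simulated data. All 10 members were named; of other lists, the most abundant gene, those at the floor and at most 3 genes in each direction. The value of 1 gene near to Krt8 in pattern is not reported here. Lgals3, Gm26917, Muc1 and the sums without the most abundant gene were chosen after values were seen. Alternatives used DESeq2 1.42.0, other scalings, prior count, read minimum and threshold.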

Additional observations from a re-analysis of the deposited data

Results flagged for a closer look

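For Ager, the BLM and sham libraries differed in opposite directions in different fractions, with counting intervals on either side of 0. Its log2 ratio of BLM over sham was -0.50 in unsorted cells (2274 and 1306 reads in sham and BLM) and 1.66 in Lamp1-depleted cells (186 and 273 reads), a gap of 2.16. The gap between unsorted and Lamp1-enriched cells, where the ratio was 0.09 (2001 and 2528 reads), was 0.59. Each fraction was 1 library per treatment, so neither difference was tested, and the Lamp1-depleted value rests on the library with 38.4% of its reads on Gm26917.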

How the results depend on the processing

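Each condition was 1 library, so no replicate could be left out. The sort was fitted with treatment as a block, and a test of BLM against sham with fraction as a block was not made. Of 221 member ratios recomputed under other scalings or prior counts, 192 stayed within their counting interval and 29 moved beyond it, and no called ratio changed sign. Of 36 edgeR member values, 33 kept direction and call; Krt19 (1.14 with DESeq2, 1.39 with total counts) and Sfn (-1.08 with total counts) lost the call. Of 58 values against the pan-epithelial genes, 44 moved beyond the counting interval with Epcam or Cdh1 alone. Of 420 counts and 210 medians of the other lists under other scalings, chosen after seeing the data, 391 and 161 stayed within 1.5 times and on their side of 0 and of the call.

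Total counts shifted the median of all genes by -0.26, -0.72 and 0.01 (log2) for BLM over sham in unsorted, depleted and enriched cells and by -0.17 and 0.55 for the sort in sham and BLM. Total counts outside Gm26917 shifted it by -0.18 in unsorted cells and by -0.21 and -0.12 for the sort, and DESeq2 size factors by 0.15 for BLM over sham in Lamp1-depleted cells and -0.15 for the sort in BLM. With total counts, Lamp1-depleted cells had 3 members (main 5), 1417 genes (2859) higher and 9770 (4649) lower in BLM, and no member was lower by sorting in BLM (0, main 1). The share of higher among called genes then was 32.4% (main 46.6%) in unsorted cells, 12.7% (38.1%) in Lamp1-depleted cells and 74.7% (60.3%) by sorting in BLM. edgeR then called 2872 genes higher (4422), 1564 lower (3964) and 0 members lower (1). The causes were not tested.

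With at least 50 reads required, Sprr1a was not counted, leaving 1 member higher in BLM (2) in unsorted and in Lamp1-enriched cells. All genes higher and lower then numbered 2096 and 1772 (3174 and 3639) in unsorted, 1379 and 2990 (2859 and 4649) in Lamp1-depleted and 1018 and 746 (2201 and 1693) in Lamp1-enriched cells, and 3075 (4944) were lower by sorting in BLM. With at least 1 read, they numbered 6161 and 10103, 7054 and 8419, and 6324 and 4474 in the same fractions, and by sorting 9532 and 8445 in sham (6022 and 5508) and 12260 and 8902 in BLM (7520 and 4944). Fewer or more genes were tested by construction.

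At a log2 ratio of 2, BLM members numbered 1 lower (2) in unsorted, 2 higher (5) in Lamp1-depleted and 1 higher (2) and 0 lower (2) in Lamp1-enriched cells. By sorting, 0 members (1) were lower in sham, and 3 (8) higher and 0 (1) lower in BLM. All genes higher and lower were 1129 and 1137 in unsorted, 1126 and 1607 in Lamp1-depleted and 774 and 444 in Lamp1-enriched cells, and by sorting 3401 and 2761 in sham and 4205 and 2618 in BLM.

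The BLM minus sham difference of transitional minus type 1 genes was 0.71 (1.20) in unsorted and 1.65 (0.32) in Lamp1-depleted cells with medians of the genes, and 0.64 (1.20) in unsorted and 0.67 (1.25) in Lamp1-enriched cells without Sprr1a. Against Cdh1 alone, 5 members (2) were lower by a log2 difference of 1 in unsorted cells, and 2 (4) were higher and 3 (0) lower in Lamp1-depleted cells. TMM factors from the 5 libraries other than BLM Lamp1-depleted, an alternative chosen after seeing the data, kept each count of called members and of called genes within 1.5 times in the comparisons without that library. Depth limits Sprr1a, and Krt8 and Krt18 in sham Lamp1-depleted cells (8 and 15 reads).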
